A study of Mus musculus with 38 samples.

Results

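Deletion of Srsf2 in mouse skin was accompanied by the appearance of transcripts that control skin held at low or undetected levels, and 6 of them are described here: the dynein gene Dnah17, the opsin gene Rrh, and the noncoding or unstudied transcripts 4930428N03Rik, 4931403M11Rik, Gm13713 and 1700061I17Rik. They are 6 of the 49585 genes listed in each of 4 expression tables, and all 6 were found in all 4 tables by symbol. They were selected on their expression values in knockout libraries against controls, so every difference between knockout and control for these 6 is a description without a test. Tests were kept for mice with the P95H mutation, for lists of related genes and for neighbouring genes.

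RNA of mouse back skin was sequenced to learn which transcripts differ once SRSF2 is lost or mutated. In the knockout set, 3 SRSF2-KO mice each at 4, 10 and 12 days of topical 4-hydroxy tamoxifen, all carrying Krt14-CreER, were set against 3 Cre-negative controls treated for 12, 12 and 10 days, so the mice at 4 days had no control of their own time. In the P95H set, 2 SRSF2-P95H mice at 12 days were set against 5 Cre-negative controls at 12 days, and 4 SRSF2-P95H mice at 28 days against 3 Cre-negative controls at 28 days. Cells that carried the reporter were sorted from 3 SRSF2-KO and 3 control mice at 10 days, and likewise from 3 mice heterozygous for P95H and 3 controls after 3 tamoxifen injections and 20 weeks of DMBA/TPA, a mutagen followed by a tumour promoter. All groups of whole skin received the drug, controls included, and the controls of each set are labelled with the same kind of Srsf2 allele as their mutants. The knockout set differs in copies of the tdTomato reporter between mice, while the P95H set is labelled wild type for it. The labels give neither age nor strain, nor the Cre and reporter alleles of the sorted mice.

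Krt14-CreER is a tamoxifen-activated recombinase driven by the keratin 14 promoter, which is active in basal keratinocytes. Whole skin also holds dermis, vessels, muscle and immune cells that keep the allele, and in bulk tissue more cells that carry a transcript and more RNA per cell cannot be told apart. SRSF2 is a serine- and arginine-rich protein that binds exonic sequence and helps the spliceosome choose exons, and it also acts at promoters in the release of paused RNA polymerase II. P95H, a proline to histidine change next to its RNA-binding domain, is known from myeloid malignancies and alters which exonic motifs the protein prefers. Dnah17 encodes a heavy chain of the outer dynein arms of the sperm flagellum, and Rrh encodes peropsin, an opsin-like protein of the retinal pigment epithelium. The other 4 have no function known with certainty.

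Estimated depth was 24.9 to 36.8 M reads (mega, M) per library in the knockout set of whole skin, 7.37 to 32.2 M in the P95H set, 45.9 to 92.8 M in sorted knockout cells and their controls, and 11.0 to 17.2 M after DMBA/TPA. Values of whole skin are given in steps, the smallest unit of a library in the deposited normalised counts: undetected genes sit at 1 step, and each further step stood for 0.689 to 1.22 reads in the knockout set and 0.425 to 2.0 reads in the P95H set. Values of sorted cells are normalised counts as deposited, with 0 for undetected. Srsf2 was lower in sorted knockout cells, and was not lower in whole skin at 10 days. In sorted cells Srsf2 had 3659, 3359 and 1900 normalised counts in knockout mice, against 17560, 18190 and 20595 in controls, a log2 difference of -2.71 (SE 0.27, limma adjusted p = 0.043), a call that was kept without knockout replicate 2 (adjusted p = 0.0177) and lost without any 1 of the other 5 libraries (adjusted p 0.0565 to 0.365). In whole skin it had 2450 to 2790 steps at 4 days and 2303 to 2559 at 12 days, below the controls, and 2996 to 3687 steps at 10 days, at or above the controls, which had 2879 to 2996. Knockout skin at 10 days therefore means the libraries labelled so, and each direction drawn from them rests on that label. Sorted knockout replicate 2 stood apart from its group: a normalised count there stood on fewer reads, 19969 genes were detected in it against at least 25046 in each other library of that table, and it is given separately below. Of the marker lists in sorted cells, 8 basal keratinocyte genes summed to 1139000 to 2552000 normalised counts in knockout cells and 1213000 to 1657000 in controls, while 8 macrophage markers summed to 171 to 541 in knockout cells and 239 to 260 in controls. Fibroblast genes summed to 572 to 3794 normalised counts in knockout cells and 502 to 1132 in controls. Skeletal muscle genes summed to 712 to 1057 in knockout cells and 121 to 154 in controls, without overlap, and Ttn, the giant spring protein of muscle, was called higher among the 3 of 8 that were tested. Genes of the growing hair shaft and inner root sheath summed to 11190 to 31350 in knockout cells and 39300 to 61870 in controls, without overlap. Suprabasal keratinocyte genes summed to 144300 to 373700 in knockout cells and 346300 to 579300 in controls, with overlap. No gene of the hair or suprabasal list was called. The part of RNA from such cells in the member values of sorted cells was not tested.

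The 6 transcripts come from 5 places in the genome. Positions are those of GENCODE M21 (GRCm38), matched by gene identifier, since no build is named in the labels or notes. Dnah17 lies on the minus strand of chromosome 11 from 118021723 to 118130634, 1.17 megabases from Srsf2, which is on the same chromosome from 116849901 to 116853094. Rrh lies on the minus strand of chromosome 3 from 129804408 to 129822587, and the long intergenic noncoding RNA 1700061I17Rik is also on the minus strand of chromosome 3, from 117060522 to 117077765. Gm13713, annotated as an antisense RNA, lies on the plus strand of chromosome 2 from 85160778 to 85193325, across from Lrrc55. 4930428N03Rik is annotated as a long intergenic noncoding RNA on the plus strand of chromosome 14 from 24617557 to 24788520. 4931403M11Rik was not found in that annotation, but RefSeq places its starts on the same strand of chromosome 14, beside the start of 4930428N03Rik. How reads were split between these transcripts of chromosome 14 is uncertain, so they count as 1 locus.

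The sequence at the starts of these genes is shown because the members were higher in the same mice and because Lrit3, a neighbour of Rrh, was read in the same libraries. Windows of 250 bases before to 50 bases after a start come from RefSeq (GRCm38.p6), which had 7 windows for 5 of the 6 members and none for Gm13713. The RefSeq starts of Dnah17 (118129219) and 4930428N03Rik (24621030) lie inside the GENCODE spans given above. Their windows do not cover the GENCODE starts, from which distances to neighbours are measured. The first of 3 windows of 4931403M11Rik is printed, and that of 4930428N03Rik is not. Capitals mark matches on either strand. The TATA box was searched as TATAAA. The CCAAT box was searched as the letters of its name. The GC box was searched as GGGCGG. The AP-1 site was searched as TGANTCA. No overlap occurred between matches in the windows printed.
Dnah17, chr11:118129170-118129469, minus strand: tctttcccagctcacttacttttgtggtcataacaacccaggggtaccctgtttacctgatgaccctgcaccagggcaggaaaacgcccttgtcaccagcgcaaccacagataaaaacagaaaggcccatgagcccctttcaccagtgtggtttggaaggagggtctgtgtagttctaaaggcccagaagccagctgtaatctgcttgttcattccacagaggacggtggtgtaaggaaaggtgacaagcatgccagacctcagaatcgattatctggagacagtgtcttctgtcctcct
4931403M11Rik, chr14:24617215-24617514, plus strand: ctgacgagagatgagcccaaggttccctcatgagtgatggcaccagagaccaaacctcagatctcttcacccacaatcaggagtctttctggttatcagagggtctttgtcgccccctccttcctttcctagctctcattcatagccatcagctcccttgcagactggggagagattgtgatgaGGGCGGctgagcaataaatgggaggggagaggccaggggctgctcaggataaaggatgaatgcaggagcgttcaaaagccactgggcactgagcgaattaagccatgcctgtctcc
Rrh, chr3:129822456-129822755, minus strand: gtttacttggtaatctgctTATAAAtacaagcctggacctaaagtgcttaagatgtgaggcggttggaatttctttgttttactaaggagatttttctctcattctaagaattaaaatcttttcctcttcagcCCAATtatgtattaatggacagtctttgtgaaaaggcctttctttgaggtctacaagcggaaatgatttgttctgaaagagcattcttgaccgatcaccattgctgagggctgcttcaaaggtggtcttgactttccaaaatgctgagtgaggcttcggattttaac
Lrit3, chr3:129804087-129804386, minus strand: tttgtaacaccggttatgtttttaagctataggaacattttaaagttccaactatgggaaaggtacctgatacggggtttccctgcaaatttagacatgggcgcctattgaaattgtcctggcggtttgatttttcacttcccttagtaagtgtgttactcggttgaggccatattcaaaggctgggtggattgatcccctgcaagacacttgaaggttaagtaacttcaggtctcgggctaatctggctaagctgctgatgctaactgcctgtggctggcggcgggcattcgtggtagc
1700061I17Rik, chr3:117077716-117078015, minus strand: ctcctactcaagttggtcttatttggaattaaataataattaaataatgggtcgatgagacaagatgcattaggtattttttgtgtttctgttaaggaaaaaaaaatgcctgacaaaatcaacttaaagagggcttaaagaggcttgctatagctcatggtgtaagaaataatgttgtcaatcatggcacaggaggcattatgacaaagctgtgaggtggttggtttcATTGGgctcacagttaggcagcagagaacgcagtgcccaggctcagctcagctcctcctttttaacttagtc

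No motif searched was found in each of these windows. Rrh had a TATAAA at bases 20 to 25 and a CCAAT at bases 134 to 138 of its window, 231 and 117 bases before its start. The printed window of 4931403M11Rik had a GGGCGG at bases 185 to 190, and that of 1700061I17Rik had a CCAAT on the opposite strand at bases 229 to 233. Dnah17 and Lrit3 had no match, nor did 4930428N03Rik. The second window of 4931403M11Rik held the same GGGCGG, and a TATAAA on the opposite strand 53 bases before its start, and the third held none. Of all 32851 windows in the table, 13.6% held TATAAA, 37.4% CCAAT, 35.7% GGGCGG and 7.81% TGANTCA. The printed windows of Dnah17, Rrh, 4931403M11Rik and 1700061I17Rik held 4, 4, 5 and 2 CpG dinucleotides, against a median of 7 over all windows, and that of Lrit3 held 9. The Lrit3 window fills most of the 377 bases that separate the annotated end of Rrh from Lrit3, and the window of 4931403M11Rik spans the point where the divergent transcript 4930542C16Rik begins on the other strand, 89 bases from 4930428N03Rik.

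Dnah17 was present at a low level in control skin and was higher in each knockout library. It had 93, 105 and 123 steps in the knockout mice at 4 days, 439, 473 and 313 steps at 10 days and 409, 604 and 633 steps at 12 days, against 51, 45 and 56 steps in controls. Its means were 107 ± 15.1 steps at 4 days, 408 ± 84.3 at 10 days and 549 ± 122 at 12 days, against 50.7 ± 5.51 in controls (SD, n = 3 each). The lowest library at 10 days lay far above the highest at 4 days, while the libraries at 10 and 12 days overlapped. On the log2(value + 1) scale the differences from control were 1.06, 2.97 and 3.39 in order of time.

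The transcripts of chromosome 14 were read in each knockout library and in no control. 4931403M11Rik had 20, 31 and 27 steps at 4 days, 120, 131 and 82 at 10 days and 100, 161 and 189 at 12 days, against 1 step, the undetected value, in each of the 3 controls. 4930428N03Rik had 19, 17 and 26 steps at 4 days, 83, 93 and 73 at 10 days and 93, 104 and 135 at 12 days, again against 1 step in each control. No control library held a single estimated read of either, so the folds are lower bounds, taken against a floor of 3 reads over the control group. 4931403M11Rik was at least 26.4-fold higher in knockout skin at 4 days, 116-fold at 10 days and 158-fold at 12 days, and 4930428N03Rik at least 20.8-fold, 86.7-fold and 116-fold. They were already present at the earliest time sampled.

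Rrh had 30, 49 and 45 steps at 4 days, 112, 184 and 98 at 10 days and 120, 151 and 139 at 12 days, against 26, 21 and 27 steps in controls. Knockout libraries lay above controls at each time, but at 4 days the lowest of them was only 3 steps above the highest control. The means of 131 ± 46.1 steps at 10 days and 137 ± 15.6 at 12 days differed by less than their spread, and both stood against 24.7 ± 3.22 in controls (SD, n = 3 each).

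Gm13713 and 1700061I17Rik followed other courses. Gm13713 had 14, 15 and 18 steps at 4 days, 16, 16 and 15 at 10 days and 54, 53 and 56 at 12 days, against 11, 10 and 8 steps in controls. Its level at 4 and 10 days was alike and its large difference was seen at 12 days. 1700061I17Rik had 8, 9 and 7 steps at 4 days, 30, 27 and 37 at 10 days and 21, 17 and 16 at 12 days, against 4 steps in each control. It was highest at 10 days, with no overlap between the libraries at 10 and 12 days.

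**Figure D1:**
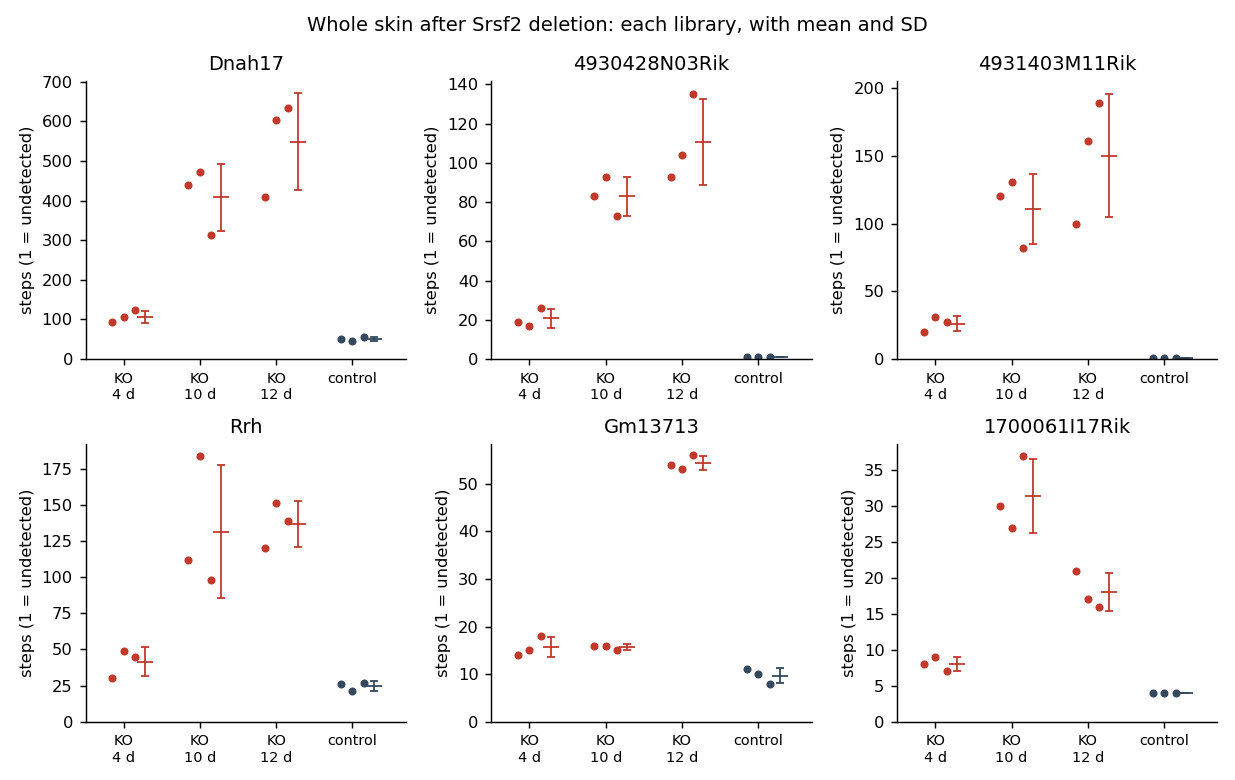
Levels of the 6 transcripts in whole skin, in steps on linear axes that start at 0, for knockout mice (red) at 4, 10 and 12 days and controls (dark blue). Points are single libraries and the bars beside them the mean and SD of 3; Dnah17 averaged 549 steps at 12 days against 50.7 in controls, Gm13713 stood out at 12 days and 1700061I17Rik was highest at 10 days.

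All 6 members had each knockout library above each control at 4, 10 and 12 days, which follows from how they were picked. Among the 19450 genes tested, with a mean of at least 10 steps, 16.0% did so at 4 days, 22.0% at 10 days and 11.8% at 12 days. These comparisons share their controls. Other features of the skin moved at the same times. At 4 days all 8 macrophage markers (summed to 89600 to 173200 steps in knockout skin, against 33350 to 51540 in controls) and all 8 fibroblast markers (1562000 to 3250000 steps, against 365400 to 843900) were called higher. At 10 days 16 of 17 tested genes of the growing hair shaft and inner root sheath were called higher, with summed levels of 4127000 to 5451000 steps in knockout skin, against 10060 to 221800 in controls, and 9 of 9 melanocyte genes were called higher too. Genes of other lists were called lower at 10 days, among them 6 of 8 endothelial and 6 of 8 skeletal muscle genes. Of 8 suprabasal keratinocyte genes, Krt10, Flg2 and Krt1 were called lower then and Ivl higher. At 12 days no gene of the macrophage, fibroblast, hair or melanocyte list was called, nor of these. The hair list then summed to 3427 to 38990 steps, but macrophage genes summed to 70370 to 84490 steps and fibroblast genes to 915500 to 1904000 steps, both above each control, with list medians of 0.73 and 0.80. At that time Dnah17, Rrh, Gm13713 and both transcripts of chromosome 14 had their highest means. The part of hair, macrophage and fibroblast RNA in the member values at 4, 10 and 12 days was not tested.

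Across the 12 libraries of the knockout set 4 members formed a close group, while Gm13713 and 1700061I17Rik followed it less closely and each other least. Pearson's r of log2(value + 1), a description over libraries that share their groups, was 0.996 between the transcripts of chromosome 14, 0.982 between Dnah17 and Rrh, and 0.925 to 0.954 between these pairs. It was 0.719 to 0.778 between Gm13713 and those 4, 0.89 to 0.897 between 1700061I17Rik and those 4, and 0.498 between Gm13713 and 1700061I17Rik.

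In sorted cells 5 of the 6 were on in each knockout library. Dnah17 had 485, 353 and 642 normalised counts in knockout cells, against 28.0, 25.0 and 26.5 in control cells. Rrh had 630, 92.5 and 464 in knockout cells, against 14.4, 14.2 and 12.8 in control cells. Gm13713 had 85.3, 37.7 and 100.3 in knockout cells, against 4.54, 3.38 and 5.13 in control cells. No control library reached a knockout library for these 3 genes, and knockout replicate 2, the second value in each series, was the lowest each time.

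4931403M11Rik had 305, 99.3 and 229 normalised counts in knockout cells, against 0 reads in all 3 control libraries, and was at least 279-fold higher against a floor of 3 reads over the control group. 4930428N03Rik had 232, 110 and 209 in knockout cells, against 0, 0.675 and 0 in control cells, where the middle value was 1 read. Its ratio of 834 rests on 589 reads in knockout cells and that 1 read, with a 95% exact interval of 149 to 33000 that covers counting error only. In these libraries of 77.4 to 92.8 M reads the locus was thus all but unread in control cells.

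1700061I17Rik behaved otherwise. It had 136, 58.2 and 111 normalised counts in knockout cells, against 95.3, 114 and 82.1 in control cells, with means of 102 ± 39.6 and 97.2 ± 16.1 (SD, n = 3 each). The groups overlapped, and the name of a transcript switched on by deletion holds for it in whole skin and not in these sorted cells. Without knockout replicate 2 its log2 difference was 0.35, against -0.01 with all libraries, and that of Rrh was 5.20 against 4.35. Over all 17744 genes tested in sorted cells, 12.8% had each knockout library above each control and 0.0282% were called higher.

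**Figure D2:**
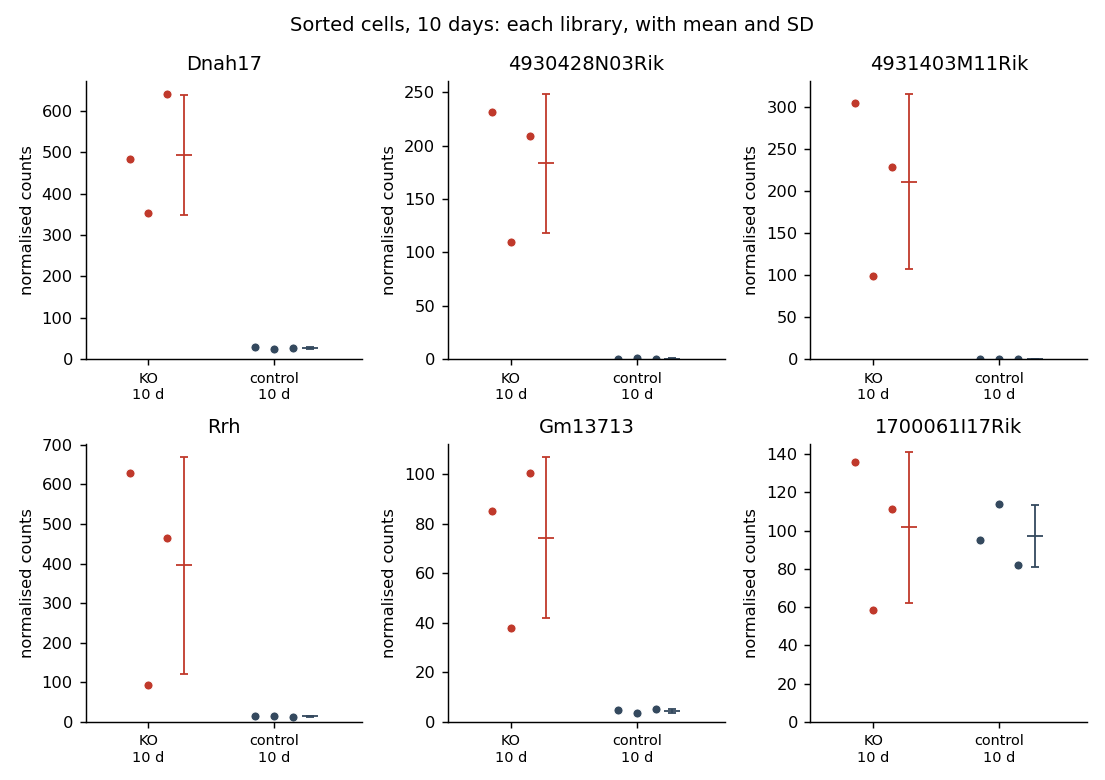
Normalised counts of the 6 transcripts in sorted reporter-positive cells at 10 days, on linear axes that start at 0, for knockout (red, left) and control (dark blue, right) mice. Points are libraries, bars the mean and SD of 3; 5 transcripts do not overlap between groups, and 1700061I17Rik does, at 102 against 97.2 on average.

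The P95H mice were tested because the members were picked on knockout libraries. Earlier results of these data were known at that choice, so full independence of the P95H tests is not established. Of the 6 members, 3 passed the filter of a mean of at least 10 steps in that set (Dnah17, Rrh and 1700061I17Rik), and 2 of those were called higher at both times, where 3.96% of 18311 tested genes were called higher at 12 days and 6.7% at 28 days. Control means at 12 and 28 days were 9.0 and 7.33 steps for Dnah17, and 7.8 and 4.0 for 1700061I17Rik. Both called members thus passed the filter only through their P95H libraries, and the share of members called depends on that. Rrh had control means above 10 steps. Dnah17 had 24 and 27 steps in P95H skin at 12 days, against 7, 11, 8, 11 and 8 steps in controls. At 28 days it had 23, 22, 19 and 20 steps in P95H skin, against 9, 6 and 7 steps in controls. P95H libraries lay above controls without overlap at both times, as 13.7% and 14.5% of tested genes did. The log2 differences were 1.42 (SE 0.26, limma adjusted p = 0.00417) at 12 days and 1.41 (SE 0.24, limma adjusted p = 0.00233) at 28 days, about 2.68-fold and 2.66-fold. The call at 12 days rests on 2 P95H mice: without replicate 2 the difference was 1.34 and the adjusted p 0.0808, and with the deposited values in place of steps it was 1.34 with an adjusted p of 0.801. The call at 28 days held in each of these settings (adjusted p 0.00421 to 0.0169 with a library left out, 0.0123 with deposited values).

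1700061I17Rik had 15 and 24 steps in P95H skin at 12 days, against 9, 8, 8, 4 and 10 steps in controls. At 28 days it had 11, 14, 10 and 15 steps in P95H skin, against 3, 4 and 5 steps in controls. It too showed no overlap at either time, at levels that stood for 4 to 19 estimated reads in P95H libraries and 3 to 7 in controls. The log2 differences were 1.23 (SE 0.35, limma adjusted p = 0.0485) at 12 days and 1.44 (SE 0.32, limma adjusted p = 0.0115) at 28 days. At 12 days the call was lost when any of 6 of the 7 libraries was left out, controls 1 to 4 and both P95H mice (adjusted p 0.0601 to 0.413), with only the groups compared in the fit (adjusted p = 0.098), without the filter (adjusted p = 0.069) and with the deposited values (adjusted p = 1.0). At 28 days it was lost without control replicate 1 (adjusted p = 0.0537).

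Rrh, which was close to Dnah17 in the knockout set, was not called in P95H skin. It had 13 and 12 steps in P95H skin at 12 days, against 12, 7, 19, 15 and 11 steps in controls, with a log2 difference of 0.03 (SE 0.35, limma adjusted p = 0.969). At 28 days it had 18, 24, 20 and 32 steps in P95H skin, against 10, 20 and 13 steps in controls, with a log2 difference of 0.70 (SE 0.32, limma adjusted p = 0.17). The groups overlapped at both times.

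The transcripts of chromosome 14 were not seen to come on with P95H. 4930428N03Rik stood at the undetected value in all 14 libraries of the set. 4931403M11Rik stood there in 12 of them, and reached 2 steps, 1 estimated read, in P95H replicate 2 at 12 days and in P95H replicate 2 at 28 days. A floor of 3 reads corresponds to 2.5 to 8.06 steps in these libraries, so levels below that were not detectable. Gm13713 was low throughout, with 4 and 2 steps in P95H skin at 12 days against 1 to 4 steps in controls, and 6, 4, 2 and 2 steps in P95H skin at 28 days against 2 to 5 steps in controls. These 3 genes did not enter the test.

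Markers of other cells were also compared in this set. At 12 days 2 of 8 macrophage genes were called higher (Cd68 and C1qb), with summed levels of 17830 to 23450 steps in P95H skin, against 11910 to 18270 in controls, and 1 of 8 fibroblast genes (Lum), with 154400 to 181600 steps against 93950 to 161900. Of 8 basal keratinocyte genes, Krt14 was called higher and Trp63 lower. At 28 days no macrophage or fibroblast gene was called. Krt14 and Krt5 were called higher then, and Col17a1 and Trp63 lower, among the 8 basal keratinocyte genes, which summed to 141000 to 179400 steps in P95H skin, against 125300 to 130900 in controls. Of 8 T cell genes, Cd4 and Trac were called higher at 12 days, and Trdc, Cd3e and Cd3d lower. At 28 days Trac was called higher and Trdc lower. Of 8 suprabasal keratinocyte genes, Krt1 was called higher at both times, and Ivl at 28 days. Dsg1a was called lower at both times, and Flg2 at 12 days. Gata3 of the hair list was called lower at both times, Mylpf of muscle at 12 days and Mitf of melanocytes at 28 days. No gene of these lists was undetected. The part of these cells in the values of Dnah17 and 1700061I17Rik was not tested.

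The change of the P95H effect between 28 and 12 days was itself tested, and no member was called, where 0.0109% of all genes were. The difference of effects was -0.01 (SE 0.35) for Dnah17, 0.66 (SE 0.48) for Rrh and 0.20 (SE 0.48) for 1700061I17Rik, with limma adjusted p of 0.996, 0.746 and 0.934.

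**Figure D3:**
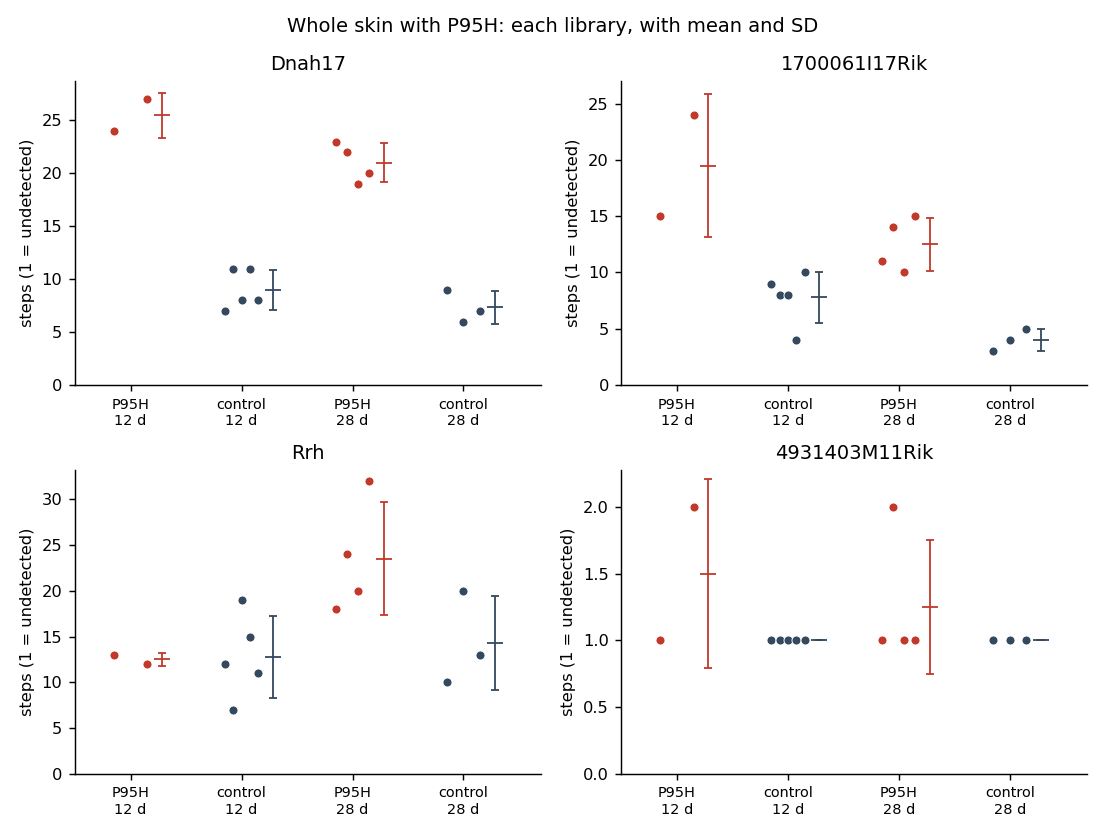
Steps in whole skin of the P95H set on linear axes that start at 0, for P95H mice (red) left of their controls (dark blue) at 12 and at 28 days, with single libraries as points and the mean and SD beside them (n = 2, 5, 4 and 3). Dnah17 and 1700061I17Rik do not overlap with controls, Rrh does, and 4931403M11Rik stays at 1 or 2 steps.

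In sorted cells of heterozygous P95H mice after DMBA/TPA, 1700061I17Rik was the member that passed the filter. It had 30.8, 21.6 and 23.1 normalised counts in P95H cells, against 6.65, 10.2 and 16.4 in control cells. Each P95H library lay above each control, as did 11.0% of 14914 tested genes, and the log2 difference of 1.18 (SE 0.37) had a limma adjusted p of 0.194. In that comparison 0.0% of genes were called higher by limma, with 2376 at an unadjusted p under 0.05, 1 call by edgeR and 350 by DESeq2. Dnah17 had 9.86, 2.59 and 4.28 normalised counts in P95H cells, against 1.33, 8.35 and 4.31 in control cells, and Rrh had 3.70, 3.46 and 3.43 against 9.31, 2.78 and 6.03. Both transcripts of chromosome 14 had 0 reads in all 6 libraries, which allows up to 2.57 to 3.99 normalised counts per library. Dnah17 and Rrh thus overlapped between groups at a few reads per library.

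**Figure D4:**
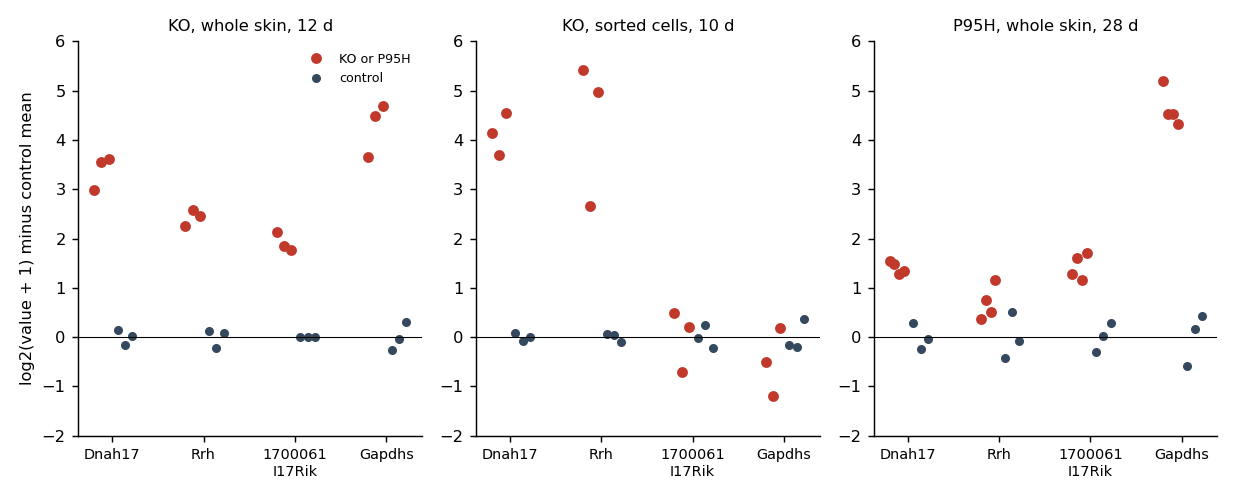
Difference from the control mean on the log2(value + 1) scale for Dnah17, Rrh, 1700061I17Rik and Gapdhs, in knockout skin at 12 days, knockout sorted cells at 10 days and P95H skin at 28 days. Red points are knockout or P95H libraries and dark blue points controls, and the tables were normalised separately. Dnah17 is high in all 3 panels, Rrh in both knockout panels, and 1700061I17Rik and Gapdhs in both panels of whole skin but not in sorted cells.

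The genes around the members were compared, because neighbouring genes on 1 strand can share transcripts. Lrit3, which encodes a leucine-rich repeat protein of retinal bipolar cell synapses, starts 377 bases after the annotated end of Rrh on the same strand, and it came on with Rrh. It had 1, 4 and 1 steps at 4 days, 13, 48 and 15 at 10 days and 20, 25 and 35 at 12 days in knockout skin, against 1, 3 and 1 steps in controls. The highest Lrit3 library at 10 days, replicate 2, was also the highest for Rrh. The log2 differences were 0.11 (SE 0.54, limma adjusted p = 0.923) at 4 days, 3.14 (SE 0.54, limma adjusted p = 0.00509) at 10 days and 3.42 (SE 0.54, limma adjusted p = 0.0164) at 12 days. The call at 12 days was lost without control replicate 1 or 3 or knockout replicate 3 (adjusted p 0.0604 to 0.079). Control means of Lrit3 were 1.67 steps in whole skin and 0.789 normalised counts in sorted cells. It thus passed the filter of a mean of 10 only through knockout libraries, and its calls depend on that. In sorted cells Lrit3 had 141, 20.5 and 98.5 normalised counts in knockout mice, against 1.51, 0 and 0.855 in controls, with a log2 difference of 5.33 (SE 0.87, limma adjusted p = 0.112), and an adjusted p of 0.0157 without knockout replicate 2.

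Gar1, a protein of the ribonucleoproteins that guide pseudouridylation, ends 2324 bases before Rrh on the same strand and is expressed in control skin. It averaged 166 ± 38.6 steps at 4 days, 370 ± 48.3 at 10 days and 216 ± 27.2 at 12 days in knockout skin, against 203 ± 30.0 in controls (SD, n = 3 each). Its rise at 10 days was called (log2 difference 0.86, SE 0.19, limma adjusted p = 0.0116), and the call was lost without control replicate 2 (adjusted p = 0.0553) and with all libraries scaled to the same total (adjusted p = 0.0517). At 12 days, when Rrh averaged 137 steps, Gar1 overlapped between knockout skin and controls.

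Upstream of Dnah17 on its strand, 1384 bases away, lies Cyth1, a cytohesin that activates ARF GTPases. It averaged 2498 ± 222 steps at 4 days, 2480 ± 276 at 10 days and 2653 ± 329 at 12 days in knockout skin, against 2461 ± 154 in controls (SD, n = 3 each), differences smaller than the spread. In sorted cells it averaged 3007 ± 684 normalised counts in knockout mice, against 3539 ± 228 in controls. Pgs1, an enzyme of cardiolipin synthesis that overlaps the end of Dnah17 by 2289 bases on the other strand, averaged 5776 ± 432 normalised counts in sorted knockout cells, against 5051 ± 745 in controls (SD, n = 3 each). Gm11738, inside Dnah17 on the other strand, stayed between 1 and 6 steps in all 12 libraries of whole skin, and had 1.42, 27.4 and 9.94 normalised counts in sorted knockout cells, against 0, 0 and 9.41 in controls. None of these 3 neighbours separated the groups in sorted cells, where Dnah17 did.

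Gm13713 has Lrrc55, a potassium channel subunit gene, on the other strand across 30992 bases, and Lrrc55 had 8 to 9 steps at 4 days, 7 to 10 at 10 days and 2 to 4 at 12 days in knockout skin, against 3 to 6 in controls. It lay above the controls at 4 and 10 days, and overlapped with them at 12 days, when Gm13713 was highest. The library kits mark strand, per the labels, but whether counting used it is not stated. On the strand of Gm13713, the antisense RNA Gm13716 begins 3606 bases after it and had 10.7, 6.85 and 9.94 normalised counts in sorted knockout cells, against 0 in all 3 controls. In whole skin Gm13716 had 2 to 3 steps at 4 days, 8 to 11 at 10 days and 3 to 5 at 12 days in knockout mice, against 2 to 4 in controls. Aplnr, the apelin receptor gene, ends 20854 bases before Gm13713 on the same strand, and is named here because of its values. It had 70.3, 27.4 and 97.6 normalised counts in sorted knockout cells, against 7.56, 2.70 and 3.42 in controls, without overlap (log2 difference 3.49, SE 0.68, limma adjusted p = 0.125, and 0.0262 without knockout replicate 2). In whole skin Aplnr had 1145 to 1747 steps at 4 days, 394 to 572 at 10 days and 632 to 1314 at 12 days in knockout mice, against 756 to 785 in controls. It was above the controls at 4 days, below them at 10 days and overlapping at 12 days. In sorted cells Aplnr passed the filter of a mean of 10 only through knockout libraries, since its control mean was 4.56.

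Around the locus of chromosome 14, 4930542C16Rik was at the undetected value in all 12 libraries of the whole-skin knockout set and all 6 sorted libraries, although its start lies 89 bases from that of 4930428N03Rik. Gm10398, 120893 bases downstream, had 3, 12 and 2 steps at 10 days and 3, 3 and 8 at 12 days in knockout skin, against 2, 2 and 1 in controls. The pseudogenes on either side of 1700061I17Rik, Gm18430 and Gm9332, stood at 1 or 2 steps in whole skin. No neighbour of these 2 loci was switched on to a level like that of the member.

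**Figure D5:**
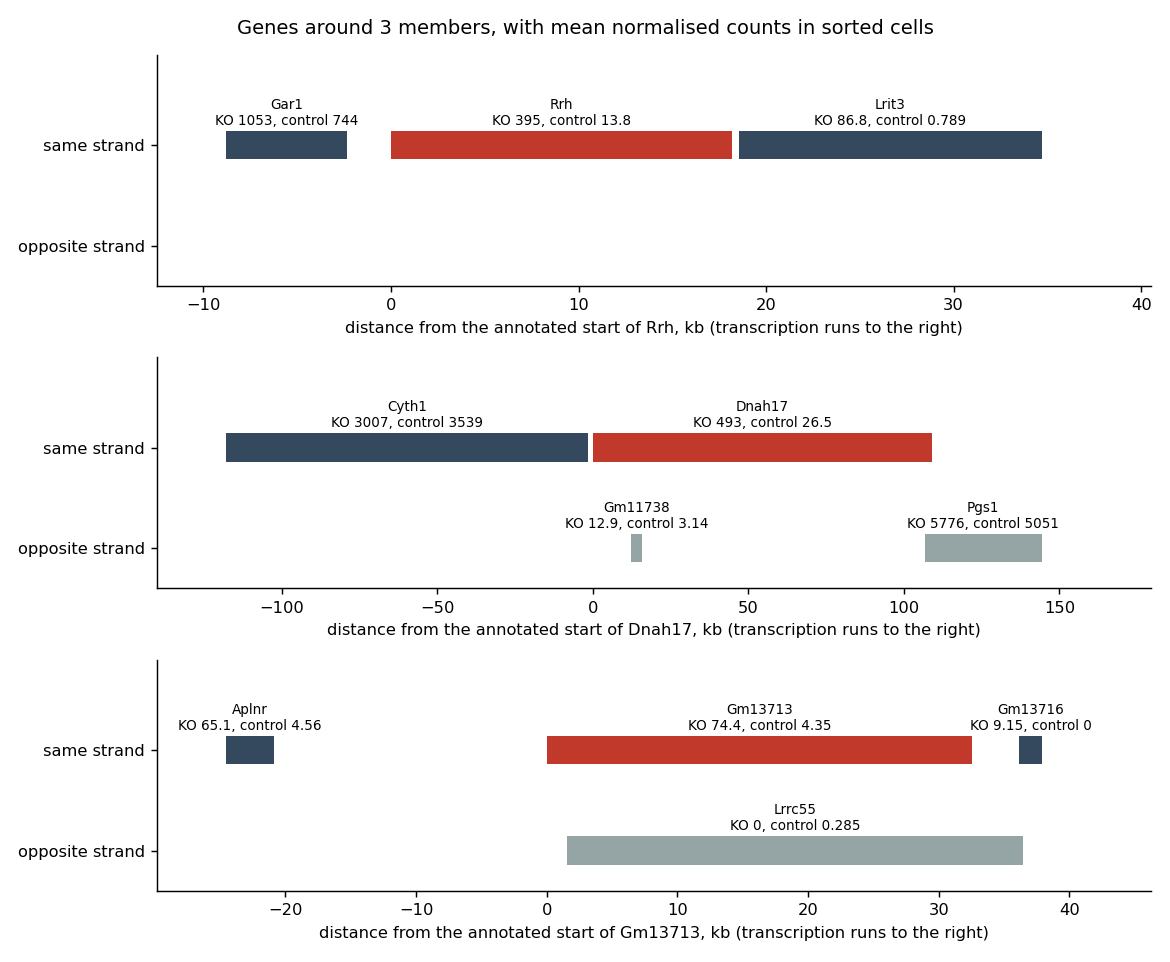
Maps, to scale, of the genes around Rrh, Dnah17 and Gm13713 by distance in kb from the annotated start of the member (red), with genes of the same strand in dark blue and of the opposite strand in grey. The numbers are mean normalised counts in sorted knockout cells and control cells; Lrit3 had 86.8 against 0.789 and Aplnr 65.1 against 4.56, while Cyth1 and Pgs1 differed by less than their spread.

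Dnah17, Rrh and Lrit3 each begin within 5 kb after the end of another gene on their strand, a feature looked at after their values were seen. In the knockout set of whole skin, 17.0% of the 19396 tested genes with a position had it. Of these 3304 genes 7.14% were called higher at 4 days, 13.0% at 10 days and 0.696% at 12 days, against 7.24%, 13.4% and 0.845% of the other genes. The shares were close in this set, and the arrangement was counted whether or not the gene before was expressed. In sorted knockout cells 0.0333% of genes in this arrangement were called higher, against 0.0204% of the others. These shares stood for 1 gene of 3005 and for 3 of the others, too few to compare. The members were picked on knockout libraries and may be among them. Median log2 differences were 0.069 and -0.066. In P95H skin the shares were 3.65% against 4.04% at 12 days and 8.01% against 6.45% at 28 days. The part of transcripts shared with the gene before was not tested.

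Genes related to the members by family or role were also compared. Of 14 other axonemal dynein heavy chain genes 9 were tested in the knockout set. None was called at 4 or 12 days, and 3 were called higher at 10 days, where 13.3% of all genes were: Dnah8, Dnah10 and Dnah11, with log2 differences of 1.67 (SE 0.37), 1.73 (SE 0.38) and 2.66 (SE 0.79). The median of the 9 was -0.05 at 10 days, against -0.02 for all genes, and -0.11 at 12 days, when 0.823% of all genes were called higher. Their limma adjusted p at 10 days were 0.0113, 0.0115 and 0.0317, and all 3 calls were lost without control replicate 2 (0.053 to 0.123), that of Dnah11 also without any other library save control replicate 3. In P95H skin 2 of 7 tested were called higher at 28 days, Dnah10 (log2 difference 1.31, limma adjusted p = 0.00293) and Dnah8 (1.12, limma adjusted p = 0.0219), and none at 12 days. The call of Dnah8 was lost without control replicate 2 or 4 or P95H replicate 2 (adjusted p 0.0649 to 0.112).

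Of 33 further genes of the axoneme and motile cilia, 21 were tested in the knockout set. At 10 days 4 were called higher, led by Foxj1, the master regulator of motile cilia, with a log2 difference of 2.26 (SE 0.33, limma adjusted p = 0.00321), the adenylate kinase Ak7 with 3.09 (SE 0.46, limma adjusted p = 0.00347) and the central pair protein gene Spag17 with 0.68 (SE 0.21, limma adjusted p = 0.0336). The call of Spag17 was lost under each library left out, and those of Foxj1 and Ak7 under none. With control means of 7.33 and 6.33 steps, Foxj1 and Ak7 passed the filter only through knockout libraries. The share of this list called at 10 days depends on that. None was called at 4 or 12 days or in sorted cells, where 0.0282% of all genes were called higher, and the list medians lay between 0.00 and 0.13. Ak7, though not called there, had 41.1 to 131 normalised counts in sorted knockout cells, against 4.05 to 9.08 in controls. At 12 days it had 15 to 31 steps in knockout skin, against 3 to 10 in controls. Foxj1 and Spag17 overlapped between groups in sorted cells, and neither lay above the controls at 12 days. In P95H skin at 28 days Cfap43 was called higher (log2 difference 0.39, limma adjusted p = 0.0354) and Dnal1 lower (-0.35, limma adjusted p = 0.0361) among 13 tested, where 5.46% of all genes were called lower. The call of Cfap43 was lost without control replicate 2 or 4 or P95H replicate 2 or 4 (adjusted p 0.0674 to 0.174), and that of Dnal1 without any 1 of the 3 controls or P95H replicate 2 or 3 (adjusted p 0.0558 to 0.111). With the deposited values the difference of Dnal1 was 0.26.

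Of 15 opsin and visual cycle genes, 9 were tested in the knockout set. At 4 days, when 7.21% of all genes were called higher and 4.12% lower, the opsin gene Opn3 was called higher (log2 difference 1.35, SE 0.38, limma adjusted p = 0.0402, a call lost without controls 1 or 2 or knockouts 1 or 3) and the retinol transporter gene Stra6 lower (-1.78, SE 0.36, limma adjusted p = 0.0125). At 10 days Stra6 and Lrat, which esterifies retinol, were called higher, by 1.83 and 2.78 on the log2 scale (limma adjusted p 0.00762 and 0.0106), the call of Lrat being lost without control replicate 2 (adjusted p = 0.0508). None was called at 12 days, when Rrh had its highest mean, or in sorted knockout cells. The list median was -0.40, -0.07 and -0.03 at 4, 10 and 12 days, and 0.89 in sorted cells, where that of all genes was -0.04. In P95H skin the retinol dehydrogenase gene Rdh11 was called higher at 12 days (0.64, limma adjusted p = 0.0122), and Stra6 at 28 days (1.54, limma adjusted p = 0.0267). The call of Rdh11 was lost without either P95H mouse (adjusted p 0.0783 and 0.115), and that of Stra6 without any 1 of the 3 controls or P95H replicate 4 (adjusted p 0.0541 to 0.111). Stra6 and Lrat handle retinoids in many tissues besides the eye.

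Of 34 germ cell and sperm genes, 7 were tested in the knockout set, and Gapdhs, a glycolytic enzyme of sperm, was the 1 called at 4 and at 12 days. It averaged 47.7 ± 5.86 steps at 4 days, 121 ± 11.1 at 10 days and 146 ± 49.8 at 12 days in knockout skin, against 6.33 ± 1.53 in controls (SD, n = 3 each). At 10 days Gapdhs, Spo11, Izumo1 and Piwil2 were called higher, 4 of 7 where 13.3% of all genes were. The list medians were -0.29, 1.17 and -0.02 at 4, 10 and 12 days, against -0.01, -0.02 and 0.00 for all genes. In P95H skin Gapdhs was the 1 of 8 called at each time. Its control means lay below the filter of 10 steps in both sets, so it passed only through knockout or P95H libraries. In sorted knockout cells no gene of these 4 lists was called.

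The genes most like each member over the 12 libraries of the knockout set were found by Pearson's r of log2(value + 1) among the 19450 tested genes. For both transcripts of chromosome 14 Gapdhs came first, with r of 0.987 for 4930428N03Rik and 0.993 for 4931403M11Rik, followed by the aldehyde dehydrogenase gene Aldh8a1 (0.959 and 0.96) and Gm14154 (0.958 and 0.952). For Dnah17 they were Gm5466 (0.968), Gm18336 (0.968) and Sprr2a1 (0.965), and for Rrh Sprr2a2 (0.967), Tnfrsf9 (0.959) and Gm5466 (0.957). Sprr2a1 and Sprr2a2 encode small proline-rich proteins of the cornified envelope, have near-identical copies, and their counts are uncertain for that reason. For Gm13713 they were B230303O12Rik (0.949), Col6a5 (0.946) and RP24-318O6.3 (0.942), and for 1700061I17Rik RP24-120F8.1 (0.939), Gm38391 (0.936) and Hsf5 (0.934).

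The likeness of Gapdhs to the transcripts of chromosome 14 in the knockout set of whole skin was not seen in the other sets. Gapdhs had 86 and 99 steps in P95H skin at 12 days, against 4 to 8 in controls, and 89 to 164 steps at 28 days, against 2 to 5 in controls, where the transcripts of chromosome 14 were undetected or at 2 steps. In sorted cells Gapdhs had 581, 360 and 939 normalised counts in knockout mice, against 730, 712 and 1061 in controls, with overlap, where the transcripts of chromosome 14 had at least 99.3 normalised counts in knockout libraries and 0 or 1 read in controls. The log2 differences of Gapdhs in P95H skin were 3.86 (SE 0.33, limma adjusted p = 2.77e-05) at 12 days and 4.65 (SE 0.30, limma adjusted p = 2.4e-06) at 28 days.

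A gene that is off in each control and on in each knockout library was uncommon. With at most 10 steps in each control and at least 20 in each of the 9 knockout libraries, 3 of 19450 tested genes (0.0154%) had the pattern: 4931403M11Rik, Gapdhs and Ms4a10. 4930428N03Rik missed it by its libraries of 19 and 17 steps at 4 days. With the 3 knockout libraries at 12 days alone, 34 genes (0.175%) had it, among them both transcripts of chromosome 14, Lrit3, Gapdhs, Aldh8a1, Ms4a10 and 5 genes named Sprr2. Dnah17 and Rrh fell outside because their controls exceeded 10 steps, Gm13713 because 1 control had 11 steps, and 1700061I17Rik because 2 of its libraries at 12 days were below 20 steps.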

How the data were processed

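RNA of whole back skin (26 libraries) and of sorted reporter-positive cells (12 libraries) was sequenced, and 4 tables of normalised counts were deposited. The submitters' processing notes name STAR, featureCounts and DESeq2, without versions, roles or a genome build. Libraries were made from Trizol-extracted RNA with stranded total RNA kits, per the labels' protocols. The deposited values are a signal on a normalised count scale, not whole-number counts. In the sorted tables, each column is a whole number of reads times 1 factor, so the reads were recovered (100.0% of values whole within a tolerance of 0.0001). In the whole-skin tables undetected genes carry a value above 0, and each library's values are whole multiples of that value, the step. Whole-skin values were divided by the step, a departure from the scale as deposited that is tried as an alternative. Reads were estimated as steps above 1 times the reads per step. Precision follows depth: 3 reads were taken as the floor of a count of 0, and intervals and floors cover counting error only, since reads carry no molecular identifiers.

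Genes whose mean reached 10 in a table were tested with limma 3.58.1 (R 4.3.3) on log2(value + 1) with a mean-variance trend, 1 fit per table over all its groups, two-sided, with Benjamini-Hochberg adjustment over all genes tested and a threshold of 0.05. Fold changes on this scale understate those of low genes. The alternatives were edgeR 4.0.16, DESeq2 1.42.0, a pseudocount of 5, no filter, a replicate block and equal totals. Fits of only the groups compared, the deposited values and leaving out each library were tried too. For sorted cells edgeR and DESeq2 were given the reads. For whole skin they were given the steps above 1, which are not reads. The fits were tested on simulated data. Groups come from the labels, which number mice as biological replicates. No 2 libraries matched within sampling noise, since the lowest chi-square per degree of freedom between libraries was 5.82.

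The members and gene lists were chosen with earlier results of these data known. Besides the members and Srsf2, the genes named are those that overlap or lie next to a member, the 3 most correlated with each over 12 libraries, and up to 3 called genes of each list with the smallest p. Aplnr, Piwil2 and genes of the on pattern fall outside that rule. Identifiers were matched to GENCODE M21, 49326 of 49585 without their version. A gene of the opsin and visual cycle list is not reported here.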

Additional observations from a re-analysis of the deposited data

Results flagged for a closer look

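In P95H skin at 28 days, replicate 2 stood apart from the other 3 libraries for 4931403M11Rik, with 2.0 steps against 1 step in each of the others. That is 1 estimated read. Of the 9 groups of members examined for a library far from the rest, this was the 1 found, and chance gives about 1 in 20.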

How the results depend on the processing

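At 4 days of knockout 2205 genes were called, against 743 with the deposited values, 764 with only the groups compared in the fit and 295 to 2585 with a library left out. At 10 days 4913 were called (2593 higher), against 8019 with every library at the same total (1201 higher), which moves the median of all genes to -0.34, and 1424 to 4869 with a library left out. At 12 days 249 were called, against 1324 with DESeq2, 110 with the deposited values, 111 with only those groups and 43 to 144 with a library left out. In sorted knockout cells 7 were called, against 0 with the replicate block, 0 at the same total, 3 with edgeR, 1256 with DESeq2 and 0 to 407 with a library left out, the highest without knockout replicate 2. In P95H skin at 12 days 1269 were called, against 786 with the block, 200 with the deposited values and 323 to 1438 with a library left out. At 28 days 2226 were called, against 628 with the deposited values, which move the median of all genes to 0.59, 1436 with only those groups and 699 to 2442 with a library left out. For the difference of P95H effects 2 were called, against 1 without a filter, 1 with the block, 1 with edgeR, 48 with DESeq2, 71 with the deposited values and 1 to 7 with a library left out. In sorted P95H cells 0 were called, against 73 without a filter, 113 with the block, 1 at the same total, 1 with edgeR, 350 with DESeq2 and 0 to 114 with a library left out. The causes were not tested. Replicate numbers only name mice: in no comparison with 3 pairs did each same-numbered pair of deviations correlate above 0.1 (-0.458 to 0.84).

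Directions turned where a value was near 0. Rrh in P95H skin at 12 days (0.03) was -0.035 with edgeR, -0.037 with DESeq2, -0.064 with the deposited values and -0.15 to 0.18 with a library left out. The difference of P95H effects of Dnah17 (-0.01) was 0.114 with the block, 0.044 with edgeR, 0.596 with the deposited values and -0.13 to 0.13 with a library left out, and that of 1700061I17Rik (0.20) was -0.12 to 0.52. Lrit3 at 4 days (0.11) was -0.33 to 0.44, and Dnal1 in P95H skin at 28 days was 0.26 with the deposited values. Depth limits what the P95H sets can show, where the members stood on 0 to 38 reads in whole skin and 0 to 27 in sorted cells.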
